A study of Mus musculus with 40 samples.

Results

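The miR-151 hairpin gives rise to 2 mature microRNAs, mmu-miR-151-3p and mmu-miR-151-5p, and both were followed in total blood of ageing mice. The members were found by name among 1915 microRNA rows of the count table, of which 105 had more than 100 reads in at least 50% of the libraries and were tested; both strands were among these 105. They were selected on earlier results of the same data, in which each strand was higher at every later age than at 12 months. Differences from 12 months are therefore given as a description with no test, and tests are confined to the 3 comparisons among the later ages. Blood was taken longitudinally from male, single-housed C57B/6J wild-type mice at 12, 13.5, 15 and 16.5 months, with 10 small RNA libraries per age and 40 in all. In the paper, mice of the learning group went through memory testing between collections, so that their first collection preceded the water maze tests and the later ones followed them. A home cage group was bled without training as a control. The sample titles do not name the group, and age and testing cannot be told apart in these libraries. The labels do not tie libraries to animals, so the main tests treat the libraries as independent although collection was longitudinal. Their p-values measure the spread between these libraries.

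A microRNA hairpin is cut by Dicer into a short duplex, and either strand can be loaded into an Argonaute protein and guide it to messenger RNAs. Which strand is kept depends largely on the ends of the duplex, and for miR-151 both strands are known to accumulate. The hairpin lies within Ptk2, which encodes focal adhesion kinase, a kinase of cell adhesion and migration, and miR-151-5p and Ptk2 have been studied together in tumour cell migration. The miR-151 precursor is also a known substrate of A-to-I editing, and reads with an edited base would not be counted where counting allows no mismatch, as it did here. In GRCm38 (mm10), Mir151 (ENSMUSG00000065612) occupies chr15:73254815-73254882 on the minus strand, 68 bases within Ptk2 (ENSMUSG00000022607, chr15:73205102-73423280, minus strand). It is intronic in all 5 annotated Ptk2 transcripts that span it and overlaps an exon in 0 of them. In the principal transcript, which has 32 exons, it lies in intron 22, 2151 bases from the exon upstream.

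Mature sequences were taken from RefSeq (GRCm38.p6) for the relatives in the miR-28 family and for the microRNAs whose levels moved most like or most unlike the strands of miR-151 after TMM scaling; 10 of 12 names looked up were matched. Capitals mark the seed, bases 2 to 8, with which a microRNA pairs to its targets. The first 3 lines are relatives, miR-1964-3p moved like miR-151-3p, miR-23a-3p moved like miR-151-5p, and miR-451a and miR-16-5p moved opposite to miR-151-3p.
miR-28a-5p: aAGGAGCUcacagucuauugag
miR-28a-3p: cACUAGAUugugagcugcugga
miR-28b: aGGAGCUCacaaucuauuuag
miR-1964-3p: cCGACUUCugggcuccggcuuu
miR-23a-3p: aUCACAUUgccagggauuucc
miR-451a: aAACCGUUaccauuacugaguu
miR-16-5p: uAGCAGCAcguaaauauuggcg

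Libraries held 2469196 to 21386209 counts. Most were reads of miR-486, a microRNA of red cells whose miR-486a and miR-486b rows hold identical counts. With these rows counted once, between 3.48% and 19.1% of counts lay outside miR-486, and with both counted, as in the totals above, between 1.77% and 10.5%; the first measure is used throughout. The median share outside miR-486 was 14.0% at 12 months, 12.7% at 13.5 months, 8.54% at 15 months and 13.7% at 16.5 months. The 15-month columns carried 2 name forms, B in 3 libraries and C in 7, the 13.5-month columns the letter A, each followed by a number, and those of 12 and 16.5 months a letter with no number, so name form and age cannot be told apart where they change together. In bulk blood, fewer cells of a type and less RNA per cell cannot be told apart.

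Both strands were detected in every library. miR-151-3p had 1047 to 12745 reads (median 4136) and ranked 16th to 27th among the 105 microRNAs. miR-151-5p had 234 to 4558 reads (median 1769) and ranked 26th to 42nd. The 3p strand was thus the more abundant one in all 40 libraries, with 1.54 to 5.67 reads per read of 5p.

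The level of miR-151-3p, in log2 CPM (counts relative to the library total after TMM scaling), ran from 7.99 to 8.89 at 12 months (median 8.31), from 8.12 to 9.16 at 13.5 months (median 8.95), from 8.71 to 9.92 at 15 months (median 9.09) and from 8.67 to 9.56 at 16.5 months (median 8.96). The mean was 8.40 ± 0.30 at 12 months, 8.85 ± 0.31 at 13.5 months, 9.18 ± 0.41 at 15 months and 9.02 ± 0.34 at 16.5 months (SD, n = 10 each). The ages overlapped, but 7 of 10 libraries at 13.5 months, 7 of 10 at 15 months and 6 of 10 at 16.5 months lay above the highest 12-month library. The highest levels of all were those of libraries 3 and 4 of 15 months in column order, at 9.92 and 9.77.

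The level of miR-151-5p ran from 6.79 to 7.34 at 12 months (median 7.16), from 7.20 to 7.99 at 13.5 months (median 7.50), from 7.23 to 7.58 at 15 months (median 7.43) and from 7.19 to 7.80 at 16.5 months (median 7.47). The mean was 7.13 ± 0.18, 7.51 ± 0.23, 7.41 ± 0.11 and 7.49 ± 0.19 log2 CPM at the 4 ages in order (SD, n = 10 each). At each later age 8 of 10 libraries lay above every 12-month library, and the 3 later ages overlapped almost entirely. On this scale the within-age SD was 0.18 for miR-151-5p (the 3rd smallest of 105, median 0.37) and 0.34 for miR-151-3p (the 45th smallest). Which strand varied less depended on the scaling: relative to library totals alone the SD was 0.57 for miR-151-5p (the 43rd smallest) and 0.27 for miR-151-3p (the 3rd smallest). Relative to counts outside miR-486 it was 0.22 for miR-151-5p (the 8th smallest) and 0.31 for miR-151-3p (the 31st smallest).

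**Figure D1:**
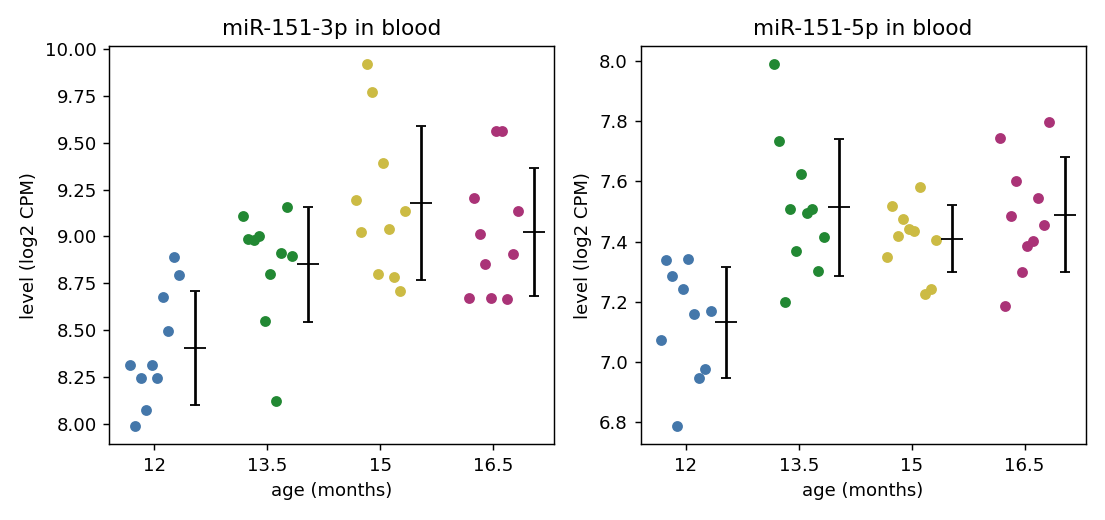
Level of miR-151-3p (left) and miR-151-5p (right) in log2 CPM against age in months. Each point is a library, in column order within an age, and the bar beside it gives the mean with its SD (n = 10). Most later libraries lie above the 12-month libraries for both strands, and on this TMM scale the 3p strand spreads more widely, up to 9.92 at 15 months; relative to library totals the 5p strand did.

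Fitted across all 105 microRNAs, miR-151-3p differed from its 12-month level by 0.45 (SE 0.15) at 13.5 months, 0.80 (SE 0.15) at 15 months and 0.63 (SE 0.15) at 16.5 months on the log2 scale, which are folds of 1.36, 1.74 and 1.55. miR-151-5p differed by 0.39 (SE 0.09), 0.27 (SE 0.09) and 0.36 (SE 0.09), folds of 1.31, 1.21 and 1.28. Among all 105, adjusted p was under 0.05 with a higher level in 15.2% at 13.5 months, 7.62% at 15 months and 13.3% at 16.5 months; since these comparisons chose the members, nothing is read from that. The direction at 15 months depended on the scaling: with library totals alone, which moved the median of all 105 by -0.84 in that comparison, miR-151-3p differed from 12 months by -0.05 and miR-151-5p by -0.51. Because this comparison also chose the members, nothing is read from their place relative to that median.

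Among the later ages neither strand passed the test in any of the 3 comparisons (edgeR quasi-likelihood test, Benjamini-Hochberg adjusted over 105), while 47.6%, 28.6% and 40% of all microRNAs did at 15 v 13.5, 16.5 v 15 and 16.5 v 13.5 months. miR-151-3p was closest at 15 v 13.5 months, with a log2 difference of 0.35 (95% interval 0.04 to 0.66, adjusted p = 0.053), and 7 of 10 libraries at 15 months lay above the 13.5-month mean. The call turned on the settings. With DESeq2 the same difference was 0.45 (adjusted p = 0.00705), with library totals alone it was -0.50 (adjusted p = 0.0023, where the median of all 105 moved by -0.81), and without the 4 libraries lowest outside miR-486 it was 0.16 (adjusted p = 0.36). With only the B or only the C libraries at 15 months it was 0.58 and 0.33 (edgeR, adjusted p = 0.038 and 0.079).

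From 15 to 16.5 months miR-151-3p differed by -0.17 (interval -0.48 to 0.14, adjusted p = 0.46), and between 13.5 and 16.5 months by 0.18 (interval -0.13 to 0.49, adjusted p = 0.34). miR-151-5p differed by -0.12 at 15 v 13.5 months (interval -0.30 to 0.07, adjusted p = 0.30), by 0.09 at 16.5 v 15 months (interval -0.10 to 0.27, adjusted p = 0.51) and by -0.03 at 16.5 v 13.5 months (interval -0.21 to 0.16, adjusted p = 0.83). With library totals alone both strands were lower at 15 months than at 13.5 and 16.5 months and passed the test: miR-151-3p differed by 0.43 and miR-151-5p by 0.72 at 16.5 v 15 months (adjusted p = 0.010 and 0.012), where the median of all microRNAs moved by 0.64.

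**Figure D2:**
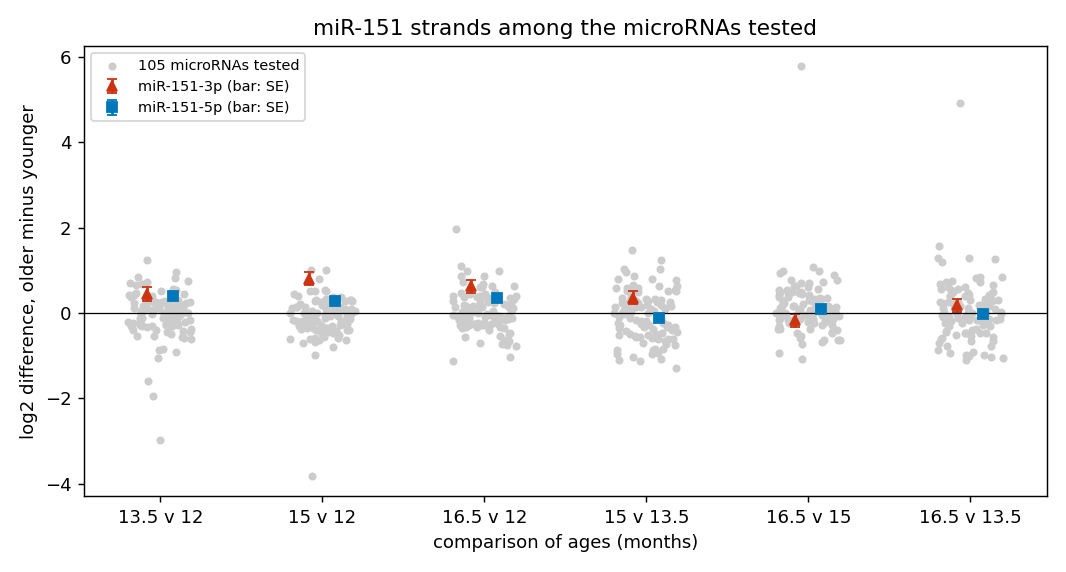
Log2 difference (older minus younger) in each of the 6 comparisons of ages, for miR-151-3p and miR-151-5p with their SE and for all 105 microRNAs tested as grey points. Both strands sit above 0 in the 3 comparisons with 12 months, by which they were chosen, and close to the bulk of microRNAs among the later ages.

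The strand ratio, log2 of 5p reads over 3p reads with 0.5 added to each, needs no scaling between libraries. It compares read counts and not molecules, because adapter ligation depends on the ends of each RNA. It ran from -1.92 to -0.65 at 12 months (median -1.26), from -1.86 to -0.63 at 13.5 months (median -1.33), from -2.50 to -1.36 at 15 months (median -1.64) and from -2.18 to -0.93 at 16.5 months (median -1.41). The means were -1.27 ± 0.39, -1.34 ± 0.35, -1.77 ± 0.38 and -1.54 ± 0.44 (SD, n = 10 each). The ages overlapped, and the lowest ratios were those of libraries 3 and 4 of 15 months.

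As a share of both strands, 5p made up 29.5% ± 5.5 of reads at 12 months, 28.6% ± 5.1 at 13.5 months, 23.0% ± 4.4 at 15 months and 26.0% ± 5.6 at 16.5 months. Counting error was small beside this spread. The library with the lowest share, library 3 of 15 months, had 15.0% of 1787 reads (95% Wilson interval 13.4% to 16.7%), and the library with the highest, library 7 of 13.5 months, had 39.3% of 4787 reads (37.9% to 40.7%). Such intervals cover counting error only, because reads without molecular identifiers are not independent molecules.

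**Figure D3:**
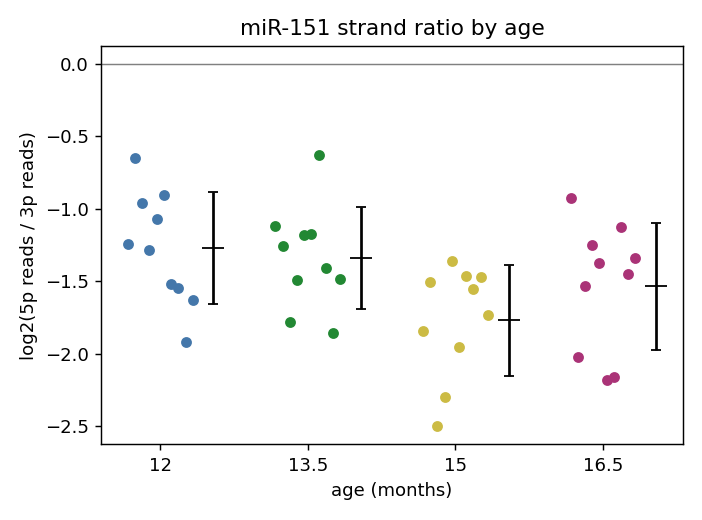
Strand ratio of miR-151, log2 of 5p reads over 3p reads, against age in months. Points are libraries, bars give the mean and SD (n = 10), and the grey line at 0 marks equal reads; every library lies below it, and the mean is lowest at 15 months, at -1.77.

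Compared with 12 months, the mean ratio differed by -0.07 (SE 0.17) at 13.5 months, -0.50 (SE 0.17) at 15 months and -0.26 (SE 0.18) at 16.5 months. Among the later ages, the ratio at 15 months was lower than at 13.5 months by a difference of -0.43 (SE 0.17), with all 10 libraries of 15 months below the 13.5-month mean (two-sided permutation test, p = 0.017, adjusted over 3 comparisons p = 0.051). On the percent scale the same comparison gave -5.59 percentage points (SE 2.12, permutation test, adjusted p = 0.047), so the call depended on the scale. It also changed with the number that recurs in the column names as a block (exact sign-flip test, adjusted p = 0.041). No source explains that number, and libraries that share it did not deviate together. The comparison did not pass by ranks (rank-sum permutation test, adjusted p = 0.071). Nor did it pass as a difference of medians (-0.32, permutation test, adjusted p = 0.145). With 5 added to each count it was -0.43 and did not pass either (permutation test, adjusted p = 0.053). With only the 3 B libraries at 15 months the difference from 13.5 months was -0.61, and with only the 7 C libraries it was -0.35 (permutation test, adjusted p = 0.13 and 0.17). The ratio differed by 0.23 (SE 0.18) at 16.5 v 15 months and by -0.20 (SE 0.18) at 16.5 v 13.5 months (permutation test, adjusted p = 0.29 for both).

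The ratio moved with the share of counts outside miR-486, a relation that was noticed in the data before it was tested. Across the 10 libraries of an age, the ratio rose with the log2 share at 12 months (Pearson r = 0.89, Spearman rho = 0.85, permutation test adjusted over 4 ages p = 0.00083 and 0.0041), at 15 months (r = 0.96, rho = 0.95, adjusted p = 0.00016 and 0.00080) and at 16.5 months (r = 0.97, rho = 0.94, adjusted p = 0.00028 and 0.00080). Without the 2 libraries farthest from the median share, r remained 0.82, 0.89 and 0.94. At 13.5 months the relation did not pass (r = 0.58, rho = 0.27, adjusted p = 0.085 and 0.46), and it rested on 2 libraries, since r was -0.24 without them.

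How the level of each strand followed that share depended on the scaling, while the ratio does not use any. Over deviations from the age means in all 40 libraries, r with the log2 share outside miR-486 was -0.83 for miR-151-3p and 0.31 for miR-151-5p after TMM scaling, and 0.70 and 0.93 relative to library totals. Relative to counts outside miR-486 it was -0.79 and 0.44. After TMM scaling, r at the 4 ages in order was -0.91, -0.51, -0.92 and -0.89 for miR-151-3p. For miR-151-5p r was 0.37, 0.21, -0.05 and 0.66. The 13.5-month value for miR-151-3p became 0.30 without the 2 libraries farthest from the median share. A level relative to the library total carries the share by construction, because most of the total is miR-486. The median share was lowest at 15 months, where the mean ratio was also lowest, although some 16.5-month libraries had smaller shares than some of 15 months. With the log2 share as a covariate, the difference at 15 v 13.5 months was 0.21 in place of -0.43, and that at 15 v 12 months was 0.17 in place of -0.50. Without the 4 libraries lowest outside miR-486, which are libraries 3, 4 and 6 of 15 months and library 6 of 16.5 months, these differences were -0.22 (permutation test, adjusted p = 0.42) and -0.29. Both alternatives were added after the data had been seen, and the part of the share in the age differences was not tested beyond them.

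**Figure D4:**
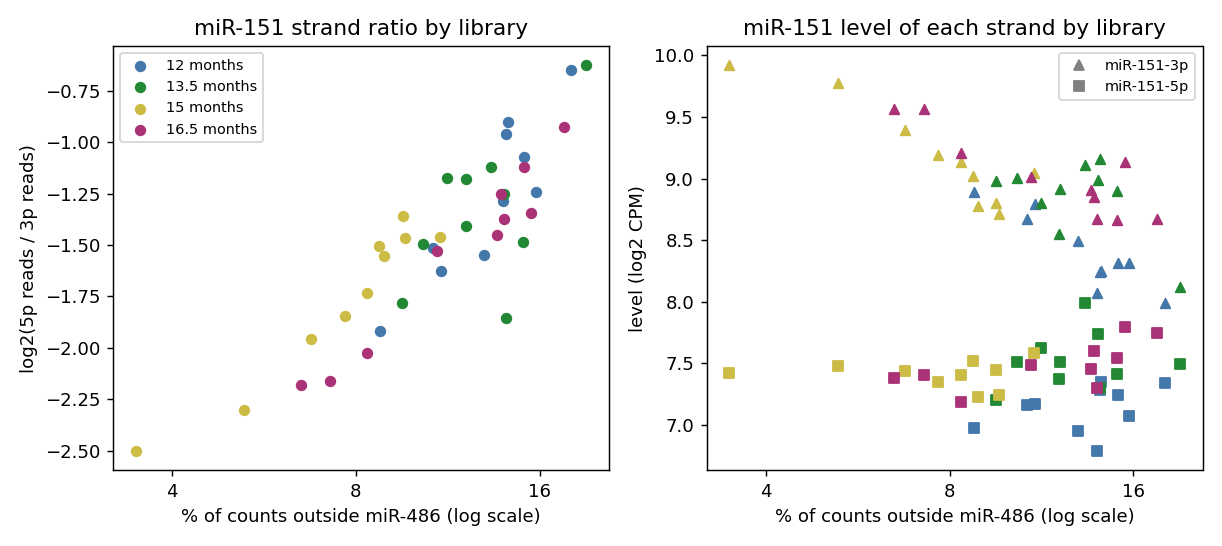
Strand ratio (left) and level of each strand in log2 CPM (right) against the percentage of counts outside miR-486, on a log axis, with 1 point per library coloured by age as in the left legend. The ratio runs from -2.50 in the library with 3.48% outside miR-486 to -0.63 in the library with 19.1%. On the right, on the TMM scale, the triangles of miR-151-3p fall along the axis over deviations from the age means (r = -0.83). At 13.5 months alone r is -0.51, and 0.30 without the 2 libraries farthest from the median share. The squares of miR-151-5p show a weaker relation (r = 0.31), with r = 0.66 at 16.5 months. Relative to library totals, where a level carries the share by construction, both strands rise with it (0.70 and 0.93). Relative to counts outside miR-486 r is -0.79 and 0.44.

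Whether the strands varied together between libraries depended on the scaling. After TMM scaling the correlation of their levels within an age was r = -0.21 at 12 months, 0.15 at 13.5 months, 0.36 at 15 months and -0.31 at 16.5 months (rho = -0.33, 0.13, 0.28 and -0.33), and over deviations from the age means in all 40 libraries r was -0.02. Relative to library totals r was 0.34, 0.42, 0.90 and 0.96 at the 4 ages in order and 0.79 over deviations. Relative to counts outside miR-486 r was 0.09, 0.37, -0.57 and -0.57 and -0.05 over deviations. These values are descriptions, since both levels share a library's scaling, and relative to library totals both carry the share outside miR-486 by construction. Ranked by likeness of deviations, the partner strand was 48th for miR-151-3p and 71st for miR-151-5p after TMM scaling, and 1st and 64th relative to library totals. On TMM levels with the age means left in, r between the strands was 0.33 and the partner ranked 27th and 12th.

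After TMM scaling, the microRNAs most like miR-151-3p in their deviations were miR-486a-5p and miR-486b-5p (r = 0.86 each, on identical counts), miR-1964-3p (0.80), miR-328-3p (0.79) and let-7d-3p (0.79). Most unlike it were miR-451a (-0.79), miR-16-5p (-0.78) and miR-26b-5p (-0.71). Members of the red cell list given below stood on both sides. The miR-486a-5p and miR-486b-5p rows were among the most like, and miR-451a and miR-16-5p among the most unlike. For miR-151-5p the list was led by miR-23a-3p (r = 0.77), followed by miR-186-5p (0.52), miR-29a-3p (0.47), miR-15b-5p (0.45) and miR-181c-5p (0.43). On levels in place of deviations, miR-486a-5p, miR-486b-5p (0.82 each) and let-7d-3p (0.76) led for miR-151-3p, and miR-23a-3p (0.63), miR-130a-3p (0.60) and miR-10a-5p (0.55) led for miR-151-5p. The 2 strands had no microRNA in common in these lists, which were made on the TMM scale only. On that scale miR-151-3p also had r = -0.83 with the log2 share outside miR-486.

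Hairpins with both arms among the 105 numbered 11 with miR-151. Of the 10 others, 8 had more 5p than 3p reads and 2, miR-25 and miR-130b, like miR-151, had more 3p. The identical miR-486a and miR-486b both count among these others and in the medians below, and 9 of the others were distinct. The within-age SD of the log2 ratio was 0.39 for miR-151, the 3rd smallest, against 0.33 for miR-30a, 0.36 for miR-30e and 0.41 for miR-130b at the low end and 1.23 for miR-486a and miR-486b and 0.81 for miR-25 at the high end (median of the others 0.59). The 4 age means of miR-151 spanned 0.50, the narrowest of all 11 (median of the others 1.17). Depth differed, so these SDs and spans are not compared at equal counting error. The rarer arm fell to 9 reads in a library for miR-15b, 16 for miR-30a and 23 for miR-25. It stayed at 187 or more for let-7d, 234 for miR-151 and 329 for miR-423. These are descriptions of 40 libraries, with no test between hairpins. Its correlation with the share outside miR-486, 0.87 over deviations from age means, was the highest of the 11, followed by 0.71 for let-7d, while miR-423 had -0.80 and miR-25 -0.78.

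**Figure D5:**
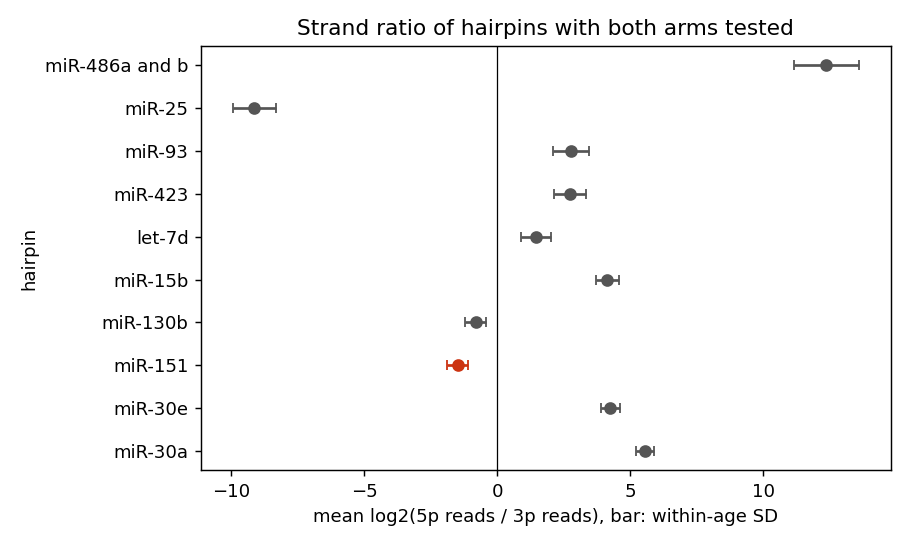
Mean log2 of 5p reads over 3p reads over 40 libraries for each hairpin with both arms tested, with the within-age SD as a bar; miR-151 is in red and the identical miR-486a and miR-486b share a line. miR-151 lies at -1.48 with an SD of 0.39, closer to 0 than every hairpin but miR-130b and let-7d.

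The relatives of miR-151 in the miR-28 and miR-708 family were scarce in the same blood, and none was among the 105. miR-28a-5p had 1 to 140 reads per library, with medians of 47.5, 43.0, 12.0 and 61.5 reads at the 4 ages in order, and miR-28a-3p had 0 to 30. The row of miR-28c equalled that of miR-28a-5p in 27 of 40 libraries and never differed by more than 5 reads, and the 2 rows cannot be read as separate signals. miR-28b, miR-708-5p and miR-708-3p had 1 read each in all 40 libraries together. miR-28a-5p averaged 3.17 ± 0.59, 3.21 ± 0.60, 2.81 ± 1.14 and 5.0 ± 1.89 CPM at the 4 ages (SD, n = 10 each), far under either strand of miR-151.

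The microRNAs of blood cell lists were detected at every age. All 8 of the red cell list had reads, and its summed level, nearly all of it the identical miR-486a-5p and miR-486b-5p rows, ran from 616464 to 1232790 CPM at 12 months, 530945 to 1004580 at 13.5 months, 1003640 to 4061090 at 15 months and 550721 to 2064070 at 16.5 months. After TMM scaling the CPM of a library need not sum to the nominal total. Without miR-486 the same list summed to 6278 to 20168, 6099 to 17828, 3879 to 15534 and 3952 to 13123 CPM at the 4 ages in order, and mean levels of miR-451a (12.54 and 12.19 log2 CPM), miR-16-5p (12.36 and 11.87) and miR-144-5p (4.41 and 4.04) were lower at 15 than at 12 months while those of miR-486a-5p were higher (18.54 and 19.43). The lymphoid list (miR-150-5p, miR-342-3p and miR-155-5p) summed to 101 to 374, 122 to 599, 139 to 428 and 137 to 873 CPM, and the myeloid list (miR-223 and miR-142a arms) to 2141 to 3545, 1407 to 2945, 1942 to 4282 and 1744 to 3643 CPM. The liver list, miR-122-5p and miR-192-5p, summed to 373 to 850, 307 to 710, 556 to 1174 and 323 to 759 CPM, and the platelet and endothelial list, both arms of miR-126a, never exceeded 6.01 CPM. At 15 v 13.5 months, where 47.6% of all microRNAs passed, 3 of 7 tested red cell members were higher and 1 lower, 1 of 2 myeloid members was higher, 0 of 2 lymphoid members passed and the 1 liver member tested was higher (edgeR, adjusted p under 0.05). The 7 red cell members include 2 identical pairs, the miR-486a and miR-486b rows of each arm, so they are not 7 separate signals. No platelet and endothelial member was among the 105, and no list member was at 0 throughout. The part of these lists in the levels of miR-151 was not tested.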

How the data were processed

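Small RNA was sequenced from total blood of mice at 4 ages (TruSeq Small RNA libraries, HiSeq single-end reads). The authors deposited raw read counts per mature microRNA, made with cutadapt, FastQC (version 0.11.5 per the submitters' processing notes) and miRDeep2 against mm10 and miRBase precursors without mismatch, with counts of repeated loci summed. The deposited normalized signal table held the same counts times 1 constant per library and served only as an alternative. No column was left unmapped to an age; columns carry no replicate number from the labels.

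Counts were fitted with edgeR 4.0.16 (quasi-likelihood, TMM, all 40 libraries, 105 microRNAs with more than 100 reads in at least 50% of libraries; log2 CPM with a prior count of 2). Intervals are 95% with 36 degrees of freedom. In simulated counts for 16.5 v 15 months, 96.7% of 30 microRNAs of 105 changed by 1 on the log2 scale were recovered, and 1.6% of the unchanged ones were called; smaller changes were not simulated. Strand ratios were compared by permutation tests with 100000 resamples (20000 for Spearman's rho) in SciPy 1.17.1. DESeq2 1.42.0, limma 3.58.1 and other scalings, filters and left-out libraries were alternatives. No library pair of an age agreed within sampling noise (smallest chi-square per degree of freedom 19.4).

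The members and lists were chosen with earlier results of these data known. Named microRNAs were the members, their relatives, hairpins with both arms tested (the 3 smallest and 3 largest SD), the microRNAs with the highest correlation to each member (5 by deviations, 3 by levels) and the blood cell lists. The hairpin correlations with miR-486, the most unlike microRNAs, and the spread and correlations of the strands under other scalings, were added after their values were seen.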

Additional observations from a re-analysis of the deposited data

How the results depend on the processing

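Of 270 values recomputed under other settings, 236 kept their direction and their side of the threshold or moved by less than the spread between libraries. All values below are log2 differences unless stated, and the cause was not tested except where the setting's own construction shows it. With library totals only, miR-151-3p differed by -0.054 (15 v 12 months), -0.50 (15 v 13.5), 0.43 (16.5 v 15) and -0.064 (16.5 v 13.5), and miR-151-5p by -0.51, -0.88 and 0.72 in the first 3 of these. For miR-151-3p at 15 v 13.5 months, the test was passed with median-ratio size factors (0.45), without the miR-486 rows (0.43), with DESeq2 (0.45), on the normalized table with limma (0.44), with 1 or 2 RUVs-like factors (0.37 and 0.27), with the 2 ages alone (0.44), without the library beyond Z 2.5 (0.35) and with only the B libraries (0.58, added after seeing the data). The RUVs-like factors were computed from TMM log2 CPM and fitted with edgeR, without the RUVSeq package that the paper used. The test was not passed with limma voom (0.067, adjusted p = 0.62), with no read filter (0.25, adjusted p = 0.41 by edgeR) or with a lower read filter (0.31, adjusted p = 0.092 by edgeR). With 2 RUVs-like factors it was also passed at 16.5 v 13.5 months (0.26), where limma voom gave -0.053. With the share outside miR-486 as a covariate (added after seeing the data), miR-151-3p differed by 0.23 (15 v 12), -0.21 (15 v 13.5) and 0.27 (16.5 v 15, adjusted p = 0.029 by edgeR), miR-151-5p by -0.0060 (16.5 v 15), and the strand ratio by 0.17 (15 v 12), 0.21 (15 v 13.5) and -0.29 (16.5 v 15). For the strand ratio the covariate was 1 slope for all ages and had no test. miR-151-5p lay so near 0 that its sign turned at 15 v 13.5 months on the normalized table (0.0080), and at 16.5 v 13.5 months with size factors (0.020), DESeq2 (0.025), voom (0.00021), the normalized table (0.025), only the C libraries (0.025) and without the 4 libraries lowest outside miR-486 (0.017); none of these passed. The strand ratio at 15 v 13.5 months passed as a percentage (-5.59 points). It did not pass by a rank-sum permutation test, as a difference of medians or with 5 added to each count.

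Leaving out 1 library at a time gave 0.25 to 0.44 for miR-151-3p at 15 v 13.5 months (adjusted p by edgeR 0.014 to 0.14), and 29 of 40 omissions brought it past the threshold; omitting a library of 12 or 16.5 months did so too, with a value of 0.42 in most cases. The ranges were -0.15 to 0.011 for miR-151-5p at 15 v 13.5 months, -0.062 to 0.066 at 16.5 v 13.5 months, -0.14 to 0.0037 for the strand ratio at 13.5 v 12 months and -0.49 to -0.35 at 15 v 13.5 months, where 7 of 40 omissions brought it past the threshold.

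The column names hold a number that recurs once at each age and that no source explains. Libraries with the same number did not deviate together (mean r = -0.0051 over 60 pairs, 24 of them over 0.1), and each library correlated best with its own number in 12 of 120 cases. With that number as a replicate block, the strand ratio at 15 v 13.5 months was -0.43 with an adjusted p of 0.041 (exact sign-flip test), and miR-151-3p was 0.33 (adjusted p = 0.0796 by edgeR); no other call changed. Settings called 12 to 54 microRNAs at 13.5 v 12, 8 to 84 at 15 v 12 and 5 to 48 at 16.5 v 12. They called 30 to 93 at 15 v 13.5, 16 to 66 at 16.5 v 15 and 28 to 74 at 16.5 v 13.5. The fit reported had 31, 25, 25, 50, 30 and 42 of 105 tested. The 48, 93 and 74 were of 345 (lower filter).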
